A study of Mus musculus with 6 samples.

Results

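Opposite-strand transcripts, which carry the symbol of a known gene followed by "os", are RNAs read from the DNA strand opposite that gene. They were taken as the rows of the deposited count table whose symbol ends in os, or in os and 1 digit, where the symbol without that ending belongs to another gene of the table, and which had at least 10 counts over the 6 libraries. These were 137 of the 55401 genes in the table, the opposite-strand partners of 128 sense genes, 8 of which have several. A further 159 such symbols fell below the limit, 125 of them with no count at all and 34 with 1 to 9 counts. Just inside the limit were Plekhd1os, with 6 and 4 counts in OP replicates 1 and 3, and Rsf1os2, with 10 counts in HFCF replicate 1. Just outside were Trpc5os, with 9 counts in HFCF replicate 3, and Dnmt3bos, with 9 counts in OP replicate 1.

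Opposite-strand RNAs are a mixed class. Many are long noncoding RNAs that start near the promoter of a protein-coding gene and run away from it, others lie within a sense gene or overlap its 3′ end, and a few encode small proteins of their own. Some are known to act on the neighbouring gene through transcription or chromatin, for others no function is known, and they are usually less abundant than the mRNA across from them.

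Gene expression was measured by poly(A) RNA sequencing of fresh liver tissue from C57BL/6 mice, with 3 libraries in each of 2 groups. HFCF names a diet rich in fat, cholesterol and fructose, and OP names treatment with okra polysaccharide, a plant carbohydrate preparation studied against fatty liver disease. Which diet the OP mice ate, their age and the dose are not in the labels, and mice on ordinary chow are not among the samples. Nothing says that each library came from a different animal, so p-values reflect only the spread among these libraries, some of which may be technical. All changes are OP relative to HFCF.

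Totals ran from 46459980 to 61918541 counts, and 3 counts in a library, the level that a count of 0 allows, stood at 0.0472 to 0.0625 CPM, the unit of counts relative to library size used throughout. The libraries differed in more than the treatment label. Transcripts encoded by mitochondrial DNA took 18.3% ± 4.01 of counts in HFCF and 9.31% ± 4.44 in OP (SD, n = 3 each). Hepatocyte markers summed to 40158 to 62686 CPM in HFCF and 60606 to 89268 CPM in OP, with 1 of 10 higher and 1 lower by the test. Of 5 erythroid markers, 4 were lower in OP, and the sum ran from 941 to 1767 CPM in HFCF and from 192 to 414 CPM in OP. Adipocyte markers summed to 6.51 to 26.5 CPM in HFCF and 17.5 to 86.6 CPM in OP, with 0 of 4 tested past the threshold by edgeR (1 at an unadjusted p under 0.05). Kupffer cell and macrophage markers summed to 263 to 345 CPM in HFCF and 152 to 252 CPM in OP, and neutrophil markers to 3.31 to 5.93 CPM and 0.50 to 2.25 CPM, so that the groups did not overlap. Of these, 0 of 8 and 0 of 3 tested passed by edgeR, with 2 and 2 at an unadjusted p under 0.05. No marker list had a gene at 0 in all libraries. The part of these differences in the results below was not tested. In bulk tissue, fewer cells of a type and less RNA per cell cannot be told apart.

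In the GENCODE M21 annotation all 137 transcripts lie on the strand opposite their sense gene. That annotation classes 115 as antisense RNAs, 8 as processed transcripts, 7 as protein-coding, 3 as lincRNAs, 2 as bidirectional promoter RNAs and 2 otherwise. In 64 pairs the genes stood head to head, with their 5′ ends facing or overlapping, and 42 of all pairs had their starts under 1000 bases apart. In 44 pairs the opposite-strand gene lay within the sense gene, in 24 the pair met tail to tail at the 3′ ends, and in 5 the sense gene lay within the opposite-strand one. Exon bases were shared with the sense gene in 89 pairs, with a median of 245 and a maximum of 3255 bases. The libraries keep the strand of the RNA, but the sources used here do not say whether the counting used it. For those 89 pairs, reads from either strand may therefore not have been told apart. Exon bases were also shared with a gene other than the sense gene, on either strand, by 36 of the 137. A pair without shared exon bases is thus not always free of such overlap.

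Most of these transcripts were scarce. Their totals over the 6 libraries ran from 10 to 12518 counts with a median of 127, and the mean level had a median of 0.391 CPM against 9.63 CPM for the sense genes. Of the 137, 38 reached 1 CPM and 12 reached 10 CPM. The most abundant was Tbx3os1, at 38.1 CPM, beside the gene of a T-box transcription factor. Per kilobase of exon, which allows levels of different genes to be compared, the sense gene stood a median of 6.58-fold above its partner over 135 pairs, and in 60 pairs the partner was over 10-fold below. In 31 pairs the order was turned. Among these, Slc7a6os stood at 7.71 CPM per kb against 0.191 for Slc7a6, an amino acid exchanger, and Hectd2os at 6.10 CPM per kb against 0.302 for Hectd2, a ubiquitin ligase. Wdr83os, which encodes a small protein of the endoplasmic reticulum, had the highest level per length among them, at 28.6 CPM per kb against 8.52 for Wdr83.

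**Figure D1:**
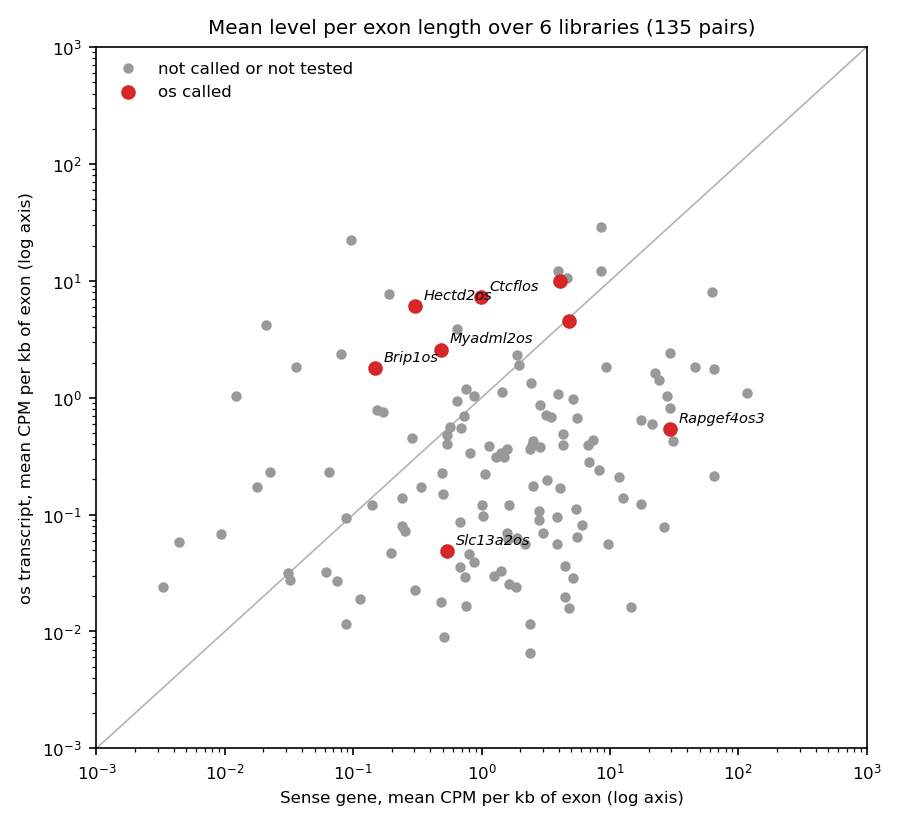
Mean level over the 6 libraries of each opposite-strand transcript (vertical axis) against its sense gene (horizontal axis), in CPM per kilobase of exon on log axes, for the 135 pairs whose sense gene had counts. Points above the diagonal, 31 of 135, are pairs in which the opposite-strand transcript was the more abundant; red points are the 8 that passed the test between OP and HFCF, 6 of them labelled.

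Each library held counts for 104 to 116 of the 137 transcripts. Their summed level was 337 CPM ± 16.8 in HFCF and 366 CPM ± 22.4 in OP (SD, n = 3 each), and the groups overlapped. Without the 10 most abundant it was 137 CPM ± 7.74 in HFCF and 123 CPM ± 3.05 in OP, and here the groups did not overlap. No test was made on these sums.

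The question put to the data was which opposite-strand transcripts differed between OP and HFCF and whether their sense genes moved with them. Of the 137, 90 had enough counts to be tested. In OP, 4 were higher (among them Hectd2os and Brip1os) and 4 were lower (Slc13a2os, Rapgef4os3, Myadml2os and Ctcflos), with an adjusted p under 0.05 by edgeR's quasi-likelihood test. These 8 make 8.89% of the tested transcripts, against 6.73% of all 17394 genes tested (3.26% higher and 3.47% lower), so with this filter the share was near the background. The 3 OP and 3 HFCF values did not overlap in 32 of the 90 (13 higher and 19 lower), or 35.6%, against 31.2% of all genes (15.8% higher and 15.4% lower). With DESeq2 in place of edgeR, 13 passed, against 14.5% of all genes. RLE scaling (6.45% of all genes) and upper quartile scaling (6.73%) kept the same 8. With a filter of 1 CPM in 3 libraries 8 of 39 passed, or 20.5% against 11.5% of all genes, and with counts divided by 4, 8 of 47, or 17.0% against 11.1%. In both, 7 were among the 8 above, Slc13a2os was no longer tested and Cebpzos was added. Without a filter on low counts 5 passed (2.5% of all genes), and 1 with the replicate number as a block (1.03%).

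Hectd2os meets Hectd2 tail to tail and shares 1834 exon bases with it, the most among the 8. It read 10.5, 5.36 and 18.2 CPM in HFCF and 39.4, 29.5 and 42.6 CPM in OP, where every library was above every HFCF library. The log2 fold change was 1.71 ± 0.387 (adjusted p = 0.038). Hectd2 itself was at 1.31, 6.26 and 3.04 CPM in HFCF and 1.42, 2.52 and 1.89 CPM in OP, a log2 fold change of -0.86 ± 0.522 that did not pass the test (adjusted p = 0.35). When the counts of both were summed, so that strand played no part, the sum followed the more abundant opposite-strand transcript, with a log2 fold change of 1.39 ± 0.259 (adjusted p = 0.0209).

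Brip1os starts 177 bases upstream of Brip1, a DNA helicase that binds BRCA1, and runs away from it without a shared exon base. Its level was 7.15, 6.69 and 10.3 CPM in HFCF and 15.4, 15.0 and 14.8 CPM in OP, a log2 fold change of 0.91 ± 0.191 (adjusted p = 0.0311). The OP libraries lay close together and above all HFCF libraries. Brip1 stood near 1 CPM in both groups (1.29, 0.832 and 1.57 against 1.05, 0.692 and 1.19), with a log2 fold change of -0.34 ± 0.411 (adjusted p = 0.66). Brip1os also shares 512 exon bases with Ints2, an Integrator subunit, and 800 with Med13, a Mediator subunit, both on the opposite strand. Their log2 fold changes were 0.04 ± 0.208 (adjusted p = 0.927) and -0.05 ± 0.184 (adjusted p = 0.901).

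Among the 4 that were lower, Ctcflos was the most abundant. It is head to head with Ctcfl, a paralogue of the chromatin insulator protein CTCF known from testis, and shares 171 exon bases with it. Ctcflos stood at 50.2, 40.2 and 60.5 CPM in HFCF and at 27.0, 22.2 and 23.0 CPM in OP, a log2 fold change of -1.06 ± 0.178 (adjusted p = 0.015). Ctcfl was near 4 CPM in all 3 HFCF libraries (4.09, 3.64 and 3.58), while OP replicate 1 was at 4.48 and replicates 2 and 3 at 1.79 and 1.62 CPM. Its log2 fold change of -0.52 ± 0.399 did not pass the test (adjusted p = 0.47).

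Rapgef4os3 lies inside Rapgef4, which encodes a cAMP-activated exchange factor for the small GTPase Rap, with no shared exon base. It read 2.97, 3.39 and 3.47 CPM in HFCF and 0.75, 0.299 and 0.458 CPM in OP, so that each OP library was below each HFCF library by more than the whole spread within a group. The log2 fold change was -2.70 ± 0.396 (adjusted p = 0.0104). The host gene was far more abundant and its groups overlapped. Rapgef4 read 199, 198 and 168 CPM in HFCF and 195, 129 and 285 CPM in OP, a log2 fold change of 0.11 ± 0.261 (adjusted p = 0.841). The same gene has 2 other opposite-strand transcripts, described after their values were seen. Rapgef4os2 had a log2 fold change of -0.25 ± 0.44 (adjusted p = 0.776) and Rapgef4os1, at under 1.2 CPM in each library, one of -1.13 ± 1.14 (adjusted p = 0.586). Whether the 3 transcripts differed from each other in their change was not tested.

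**Figure D2:**
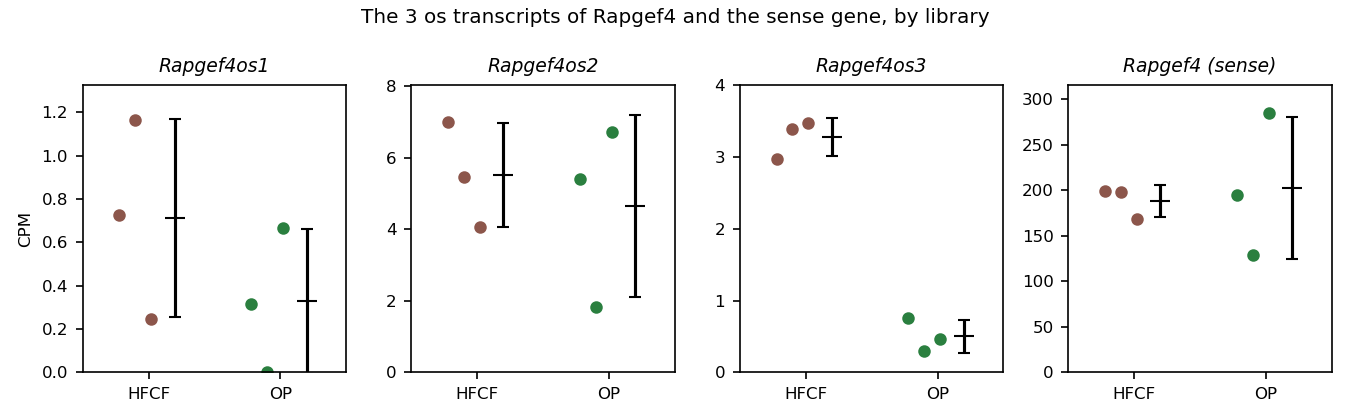
Level in CPM of the 3 opposite-strand transcripts of Rapgef4 and of Rapgef4 itself in each HFCF (brown) and OP (green) library, with the mean and SD in black; axes start at 0 and lower error bars that would pass 0 are not drawn further. Rapgef4os3 separates the groups (2.97 to 3.47 CPM against 0.299 to 0.75 CPM), while the groups overlap in the other 3 panels.

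Myadml2os starts 488 bases from Myadml2, shares 302 exon bases with it, and shares 210 with Notum on its other side, the gene of an enzyme that inactivates Wnt proteins. Its level was 4.46, 3.68 and 3.52 CPM in HFCF and 1.92, 1.20 and 1.42 CPM in OP, where all libraries were below the HFCF ones, with a log2 fold change of -1.36 ± 0.286 (adjusted p = 0.0307). Myadml2 had too few counts to be tested, with 3, 4 and 38 counts in HFCF and 0, 135 and 0 in OP. Notum had a log2 fold change of -0.09 ± 0.153 (adjusted p = 0.752).

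Slc13a2os was the pair in which both sides passed the test. It overlaps the 3′ end of Slc13a2, a sodium-coupled carrier of citrate and other dicarboxylates, with 632 shared exon bases. It had 13, 10 and 35 counts in HFCF and 0 in each OP library, so that its mean of 0.352 CPM in HFCF was at least 6.61-fold higher than the level that 3 counts per library would give in OP. If a read pair gave 4 counts, this bound would be 1.65-fold. Values of 4 are unusually frequent in the count table, but 13, 10 and 35 are not multiples of 4, so this cannot hold for every read pair. Its fitted log2 fold change of -7.28 ± 1.41 (adjusted p = 0.0356) depends on the prior count and is no bound. Slc13a2 read 2.53, 1.39 and 3.24 CPM in HFCF and 0.233, 0.236 and 0.229 CPM in OP, a log2 fold change of -3.35 ± 0.44 (adjusted p = 0.00708). The HFCF libraries held more counts of the sense gene (122, 67 and 196) than of its partner.

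**Figure D3:**
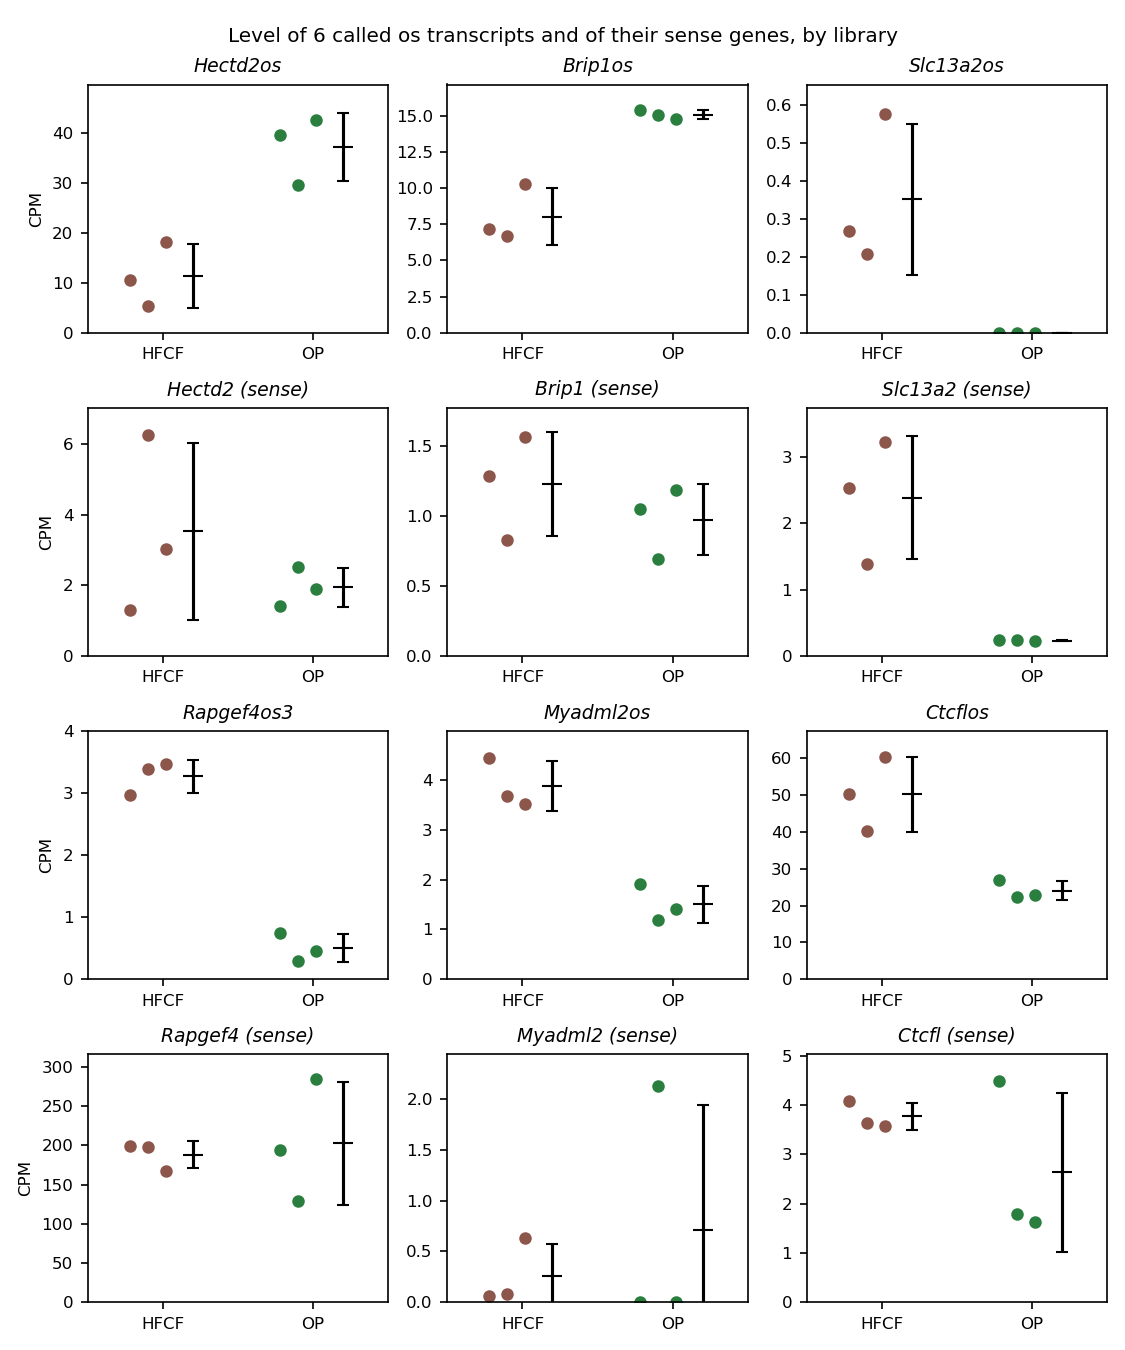
Level in CPM of 6 of the 8 opposite-strand transcripts that passed the test, each drawn above its sense gene, in each HFCF (brown) and OP (green) library, with the mean and SD in black; axes start at 0 and lower error bars are cut there. The groups are apart in all 6 opposite-strand panels, and among the sense genes only in the panel of Slc13a2.

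The start regions of these transcripts are shown where RefSeq gives one, to set the called transcripts beside the sequence from which they are read. The RefSeq table (GRCm38.p6) had a window of 250 bases before to 50 after the start for 87 of the 137 transcripts, and for 3 of the 8, Ctcflos (chr2:173124499-173124798, plus strand), Hectd2os (chr19:36689430-36689729, minus strand) and Slc13a2os (chr11:78394235-78394534, plus strand). For Brip1os, the 250 bases before the start of Brip1 (chr11:86201194-86201443, minus strand) are shown instead, since they hold the space between both starts. The counts were made on another build, GRCm39. Sequences run 5′ to 3′ on the named strand. Capitals mark matches, on either strand, to the TATA box with the letters TATAAA, the CCAAT box of those letters, the GC box with the letters GGGCGG, the E box with the letters CACGTG or the nuclear receptor element with the letters AGGTCA. In the Brip1 window the CCAAT box overlaps the GC box once.
Ctcflos: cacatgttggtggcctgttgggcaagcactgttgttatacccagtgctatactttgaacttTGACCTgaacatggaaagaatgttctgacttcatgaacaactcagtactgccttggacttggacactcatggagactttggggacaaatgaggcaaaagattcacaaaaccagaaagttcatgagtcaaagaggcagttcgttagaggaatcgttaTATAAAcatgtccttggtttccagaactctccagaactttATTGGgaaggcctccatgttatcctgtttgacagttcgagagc
Hectd2os: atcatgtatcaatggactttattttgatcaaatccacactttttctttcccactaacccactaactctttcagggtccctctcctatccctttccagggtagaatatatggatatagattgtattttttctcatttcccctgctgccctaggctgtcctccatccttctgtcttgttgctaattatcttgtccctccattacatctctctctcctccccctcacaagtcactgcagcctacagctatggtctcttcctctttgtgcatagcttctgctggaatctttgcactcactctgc
Slc13a2os: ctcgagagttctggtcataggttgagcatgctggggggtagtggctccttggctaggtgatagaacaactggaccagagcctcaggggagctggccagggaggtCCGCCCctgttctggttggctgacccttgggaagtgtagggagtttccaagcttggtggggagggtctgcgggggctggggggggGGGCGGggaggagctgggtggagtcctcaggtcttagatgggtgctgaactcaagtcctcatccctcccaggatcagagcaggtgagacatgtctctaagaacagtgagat
Brip1: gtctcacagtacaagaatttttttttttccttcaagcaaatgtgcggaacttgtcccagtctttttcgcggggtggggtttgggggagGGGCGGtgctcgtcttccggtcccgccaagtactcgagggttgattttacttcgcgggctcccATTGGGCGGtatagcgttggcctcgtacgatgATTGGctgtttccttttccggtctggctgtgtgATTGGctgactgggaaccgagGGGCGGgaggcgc

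The Ctcflos window held 3 matches, 1 each to the TATA box, the CCAAT box and AGGTCA, and 3 CpG dinucleotides. The Hectd2os window held none of these motifs and 0 CpG, and the Slc13a2os window held 2 GC boxes and 4 CpG. The 250 bases before Brip1, which reach past the start of Brip1os, held 18 CpG and 6 matches to the CCAAT and GC boxes, against a median of 7 CpG over all 32851 windows of 300 bases and of 8 over the 107 windows of opposite-strand transcripts. Of the latter windows, 35.5% held a GC box (35.7% of all windows), 27.1% a CCAAT box (37.4%), 9.35% a TATA box (13.6%), 8.41% an E box (7.15%) and 21.5% AGGTCA (16.3%). The longer PPAR response element, in which that run of letters is repeated directly after 1 spacer base, was in 0 of the 107 and in 0.0396% of all windows. A match describes the letters of a window and shows no binding.

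Of the 128 sense genes, 117 could be tested. In OP, 2 were higher (Sardh and Scpep1) and 4 lower (Slc13a2, Sorbs2, Dgke and Dnmt3a), together 5.13% against the 6.73% of all genes. Sardh, a mitochondrial enzyme that oxidises sarcosine, read 456, 398 and 539 CPM in HFCF and 852, 846 and 695 CPM in OP, a log2 fold change of 0.78 ± 0.17 (adjusted p = 0.0345). Its partner Sardhos had 24, 13 and 22 counts in HFCF and 10, 13 and 11 in OP, with groups apart in CPM and a log2 fold change of -0.91 ± 0.633 that did not pass the test (adjusted p = 0.417). Scpep1, a serine carboxypeptidase, rose from 13.3, 12.5 and 13.2 CPM to 22.9, 21.7 and 19.7 CPM, a log2 fold change of 0.73 ± 0.134 (adjusted p = 0.0205). Scpep1os had 20, 10 and 11 counts in HFCF and 0, 10 and 10 in OP (log2 fold change -1.14 ± 1.09, adjusted p = 0.568).

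The other 3 sense genes that fell had partners too scarce to test. Dnmt3a, a DNA methyltransferase that sets new methyl marks, read 35.1, 35.3 and 31.6 CPM in HFCF and 16.3, 21.8 and 22.8 CPM in OP (log2 fold change -0.75 ± 0.163, adjusted p = 0.0342), while Dnmt3aos had 0, 7 and 4 counts in HFCF and 0 in OP. Dgke, a kinase that turns diacylglycerol into phosphatidic acid, went from 6.57, 6.55 and 4.01 CPM to 1.87, 2.83 and 2.33 CPM (log2 fold change -1.28 ± 0.287, adjusted p = 0.0371), with 8 counts of Dgkeos in HFCF replicate 2 and 4 in OP replicate 2. Sorbs2, an adaptor of the actin cytoskeleton, went from 56.1, 62.9 and 50.2 CPM to 32.4, 34.2 and 33.4 CPM (log2 fold change -0.76 ± 0.137, adjusted p = 0.0191). Sorbs2os had 4, 22 and 10 counts in HFCF and 7, 2 and 3 in OP. At these depths a change of the partner could not be tested.

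In 86 pairs both sides were tested, and in 1 of them, Slc13a2os and Slc13a2, both passed. The log2 fold changes had the same sign in 45 pairs and opposite signs in 41. Across the 86 pairs Pearson's r between the changes was 0.38 and Spearman's rho 0.04, and without the Slc13a2 pair r was -0.02 and rho 0.01. These values are across genes measured in the same 6 libraries, which are not independent replicates, and are given as a description. Among the 60 tested pairs that share exon bases r was 0.45, or -0.04 without the Slc13a2 pair, and among the 26 that share none it was 0.04.

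**Figure D4:**
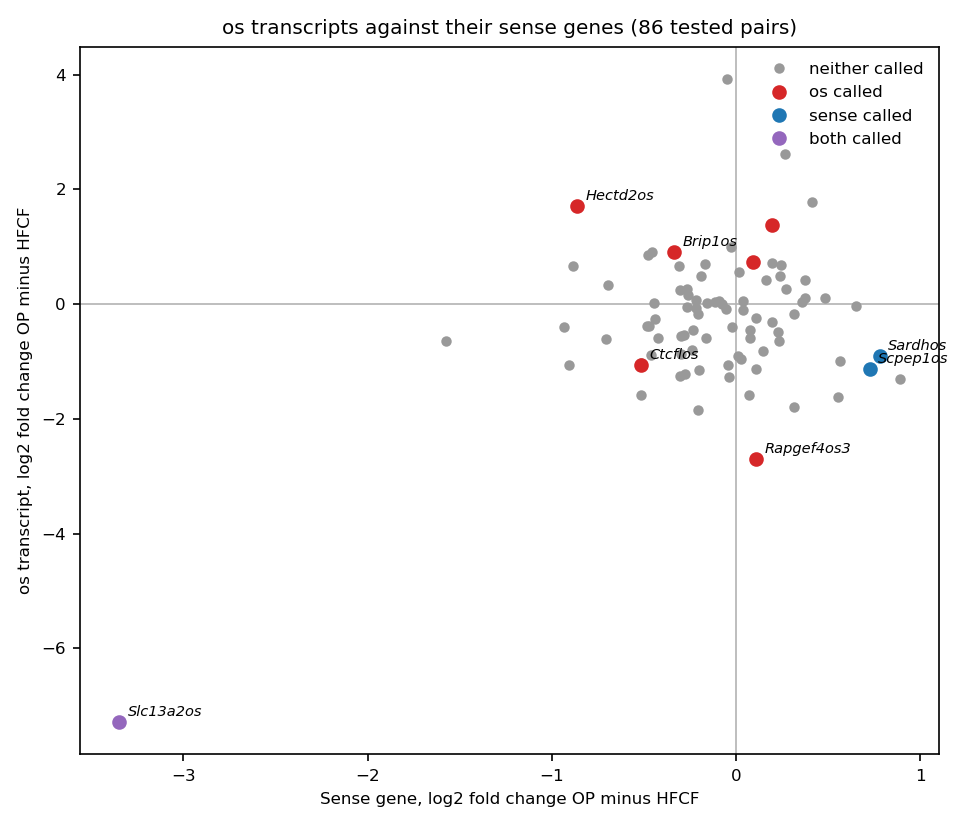
Log2 fold change (OP minus HFCF) of each opposite-strand transcript against that of its sense gene for the 86 pairs tested on both sides; red, the opposite-strand transcript passed the test; blue, the sense gene; purple, both; not every called point is labelled. The points scatter around 0 without a shared direction (45 same sign, 41 opposite), and Slc13a2os, whose fitted value of -7.28 depends on the prior count, stands alone at the lower left.

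The ratio of the paired counts within a library does not depend on how libraries are scaled. Over 24 named pairs, with 1 added to each count, this log2 ratio kept the groups apart in 9, and over all 86 pairs tested on both sides it did so in 21, or 24.4%. Of the 24 pairs, 16 were named because a side had passed the test or had a large fold change, so nothing is read from their count. It was higher in OP in 4 of these, by 2.49 for Hectd2os and 1.25 for Brip1os. It was lower for Rapgef4os3 (-2.79), Sardhos (-1.62), Slc13a2os (-1.09), Scpep1os (-2.36) and Prkag2os2 (-2.27). Slc13a2os had 0 counts in each OP library, so its difference rests on the added 1. For Scpep1os and Prkag2os2 the size of the difference rests in part on an OP library with 0 counts. Their other OP libraries were also below the HFCF libraries. For Prkag2os2 the groups all but met, at -6.1689 in HFCF replicate 1 and -6.1690 in OP replicate 1. Each of the 9 had an exact two-sided permutation p of 0.1, the smallest that 3 libraries against 3 can give, so none can pass a threshold of 0.05. For Ctcflos the ratio overlapped between groups (-0.38, exact permutation p = 0.6).

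The other highly abundant opposite-strand transcripts did not pass the test. Tbx3os1 read 30.3, 34.1 and 33.0 CPM in HFCF and 49.9, 33.9 and 47.3 CPM in OP (log2 fold change 0.43 ± 0.17, adjusted p = 0.162), and Tbx3 had a log2 fold change of 0.37 ± 0.14 (adjusted p = 0.144). Slc7a6os had a log2 fold change of -0.26 ± 0.162 (adjusted p = 0.355) and Rab10os, across from a GTPase of membrane traffic, one of -0.48 ± 0.197 with groups apart (adjusted p = 0.171). Wdr83os was at 23.0, 21 and 27.6 CPM in HFCF and 38.5, 36.4 and 30.5 CPM in OP, with groups apart (log2 fold change 0.56 ± 0.16, adjusted p = 0.0724). Cebpzos read 9.23, 8.19 and 10.4 CPM in HFCF and 12.6, 16.5 and 15.4 CPM in OP, also apart (log2 fold change 0.68 ± 0.17, adjusted p = 0.0522). DESeq2 called both of the latter, with adjusted p of 0.0302 for Wdr83os and 0.0162 for Cebpzos.

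The protein-coding class held 7 transcripts, among them Slc7a6os, Wdr83os, Cebpzos, Ccpg1os, Brd3os and Cdiptos. Their median log2 fold change was 0.56, with 5 above 0 and 2 below, and 1 of 7 passed the test (6.73% of all genes). Groups were apart and higher in OP in 4 of the 7, against 15.8% of all genes. The 7 were also more abundant, with a median level of 11.5 CPM against 0.355 CPM for the other classes. The 83 tested transcripts of other classes had a median log2 fold change of -0.38, with 3 higher and 4 lower by the test. Ccpg1os, Brd3os and Cdiptos were named after their values were seen, and Ccpg1os had a log2 fold change of 0.71 ± 0.205 (adjusted p = 0.0741).

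A large fitted change did not always pass. Of the 25 tested with an absolute log2 fold change above 1, 6 passed the test. The share among all genes with such a change was not counted, so nothing particular to opposite-strand transcripts is read from this. Phtf1os, head to head with Phtf1, had 0, 30 and 12 counts in HFCF and 411, 338 and 13 in OP, so OP replicate 3 stood with the HFCF libraries (log2 fold change 3.92 ± 1.27, adjusted p = 0.0972). Without that library the log2 fold change was 4.47 (adjusted p = 0.0455), and without any other 1 library it was 3.35 to 5.23 (adjusted p = 0.176 to 0.27). With the mitochondrial share as a covariate its sign turned (-0.75, adjusted p = 0.899). Phtf1os shares 2101 exon bases with Rsbn1 on the opposite strand, whose log2 fold change was -1.0 ± 0.513 (adjusted p = 0.265). Bcas3os2 had 0, 8 and 2 counts in HFCF and 14, 22 and 32 in OP (log2 fold change 2.62 ± 1.11, adjusted p = 0.185). Prkag2os2, inside the gene of a regulatory subunit of AMP-activated kinase, had 18, 45 and 83 counts in HFCF and 21, 24 and 0 in OP (log2 fold change -1.85 ± 1.0, adjusted p = 0.293).

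Transcription factors are encoded by 25 of the sense genes, by a list drawn up with earlier results known. Of the 19 tested opposite-strand transcripts across from such genes, 1 was higher and 1 lower (Ctcflos), or 10.5% against 6.73% of all genes, with a median log2 fold change of 0.03. Among the 22 tested sense genes of this role 0 passed by edgeR, with 1 at an unadjusted p under 0.05.

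The median log2 fold change of the 90 tested opposite-strand transcripts was -0.26, with 36 above 0 and 54 below, against 0.02 over all tested genes. Other genes of the antisense class had a median of -0.31 over 533 tested, of which 7 were higher and 25 lower, or 6.00%. The median differed with abundance. Below a mean of 1 CPM the median was -0.40 for the opposite-strand transcripts, -0.43 for other antisense genes and -0.14 for all genes, and from 1 CPM up it was -0.03, -0.15 and 0.05. By layout, the median was -0.08 for 42 tested head to head, -0.16 for 20 tail to tail and -0.60 for 23 inside the sense gene, of which 5 were above 0. These medians are a description of the list, with no test.

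Most calls were among the more abundant transcripts. The median standard error of the log2 fold change was 0.68 below 1 CPM and 0.30 from 1 CPM up, against 0.71 and 0.21 over all tested genes. From 1 CPM up, 7 of 37 tested transcripts were called, against 1 of 53 below. The share of all genes called in these ranges was not counted, so nothing particular to opposite-strand transcripts is read from these counts. The 47 that were not tested had totals of 10 to 374 counts with a median of 17, and 43 of them were at 0 in at least 1 library. Counts in a single library only were found for 8, while 7 were at 0 in all OP and 11 at 0 in all HFCF libraries. The most abundant was Atcayos, tail to tail with the brain gene Atcay, with 0, 6 and 156 counts in HFCF and 0, 212 and 0 in OP. Foxd2os had 4, 18 and 3 counts in HFCF and 10, 29 and 9 in OP, and Rbm3os, across from a cold-inducible RNA-binding protein, had 9, 18 and 3 against 7, 6 and 19.

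The calls rested on single libraries to different degrees, while each of the 8 kept its direction when any 1 library was dropped. Without HFCF replicate 1, 0 of 101 tested opposite-strand transcripts passed by edgeR (18 at an unadjusted p under 0.05), and without HFCF replicate 2, 0 of 98 (20 at an unadjusted p under 0.05). The share over all genes fell with them, to 0.609% and 0.481%. Without OP replicate 1, 2 passed (1.13% of all genes), and without OP replicate 2, 3 passed (3.69%). Without HFCF replicate 3 (6.21%) and without OP replicate 3 (7.09%) there were 7 each, of which 7 and 5 were among the 8. Rapgef4os3 missed the threshold without HFCF replicate 1 (adjusted p = 0.0622) or 2 (0.0674). Ctcflos missed it without HFCF replicate 1 (adjusted p = 0.091), HFCF replicate 2 (0.0518) or OP replicate 1 (0.0557). Brip1os missed it without HFCF replicates 1 or 2 or OP replicates 1 or 2, with adjusted p from 0.0744 to 0.185. Hectd2os and Myadml2os were called only with all libraries or without HFCF replicate 3, and Slc13a2os only with all 6.

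**Figure D5:**
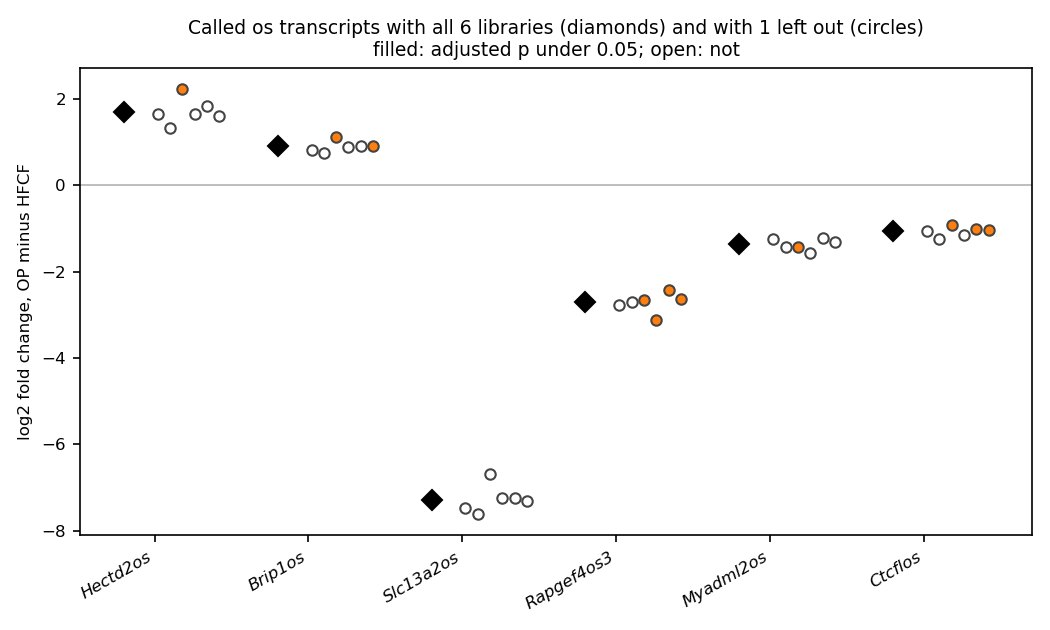
Log2 fold change (OP minus HFCF) of 6 of the 8 called opposite-strand transcripts with all 6 libraries (diamonds) and without HFCF replicates 1, 2 and 3 and OP replicates 1, 2 and 3 in turn (circles, left to right); filled symbols have an adjusted p under 0.05. The values stay on 1 side of 0, from 0.75 to 1.12 for Brip1os and from -3.11 to -2.43 for Rapgef4os3, while all circles without HFCF replicates 1 or 2 are open.

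The sense genes followed the same pattern. Without HFCF replicate 1, 0 of 118 sense genes passed by edgeR (10 at an unadjusted p under 0.05) and Slc13a2 had an adjusted p of 0.0521. Slc13a2 passed without each of the other 5 libraries, with adjusted p from 0.0197 to 0.048. Without HFCF replicate 2 or OP replicate 1, it was the 1 sense gene that passed, and without OP replicate 2 there were 2.

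With the share of mitochondrial mRNA as a covariate, 1 opposite-strand transcript passed (1.19% of all genes), and 0 of 117 sense genes passed by edgeR (15 at an unadjusted p under 0.05). Because this share differs between the groups, the covariate takes up part of the group difference and its part cannot be told apart from that of the treatment.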

How the data were processed

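Liver poly(A) RNA of 6 samples was sequenced as paired ends from strand-keeping dUTP libraries, per the labels' protocols. Cutadapt 1.9, FastQC and the genome build GRCm39 are named in the submitters' processing notes; which aligner and counter were used, and whether reads were counted by strand, is not stated in those notes or the labels. The authors deposited whole-number counts per gene for the 6 libraries, in which values of 4 are unusually frequent, so that several counts may stand for 1 read pair. Intervals and floors from counts cover counting error only.

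The opposite-strand transcripts and all lists were chosen with earlier results of these data known. Symbols were matched by Ensembl identifier (55141 of 55401). GENCODE M21 (GRCm38) gave strand, class, layout, exon overlap and length, and no coordinates from it are printed beside counts. Samples were grouped by title, and 0 per-sample columns were left without a sample.

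All genes that passed filterByExpr (17394) were fitted at once with edgeR 4.0.16 in R 4.3.3 (TMM scaling, glmQLFit and glmQLFTest, two-sided, Benjamini-Hochberg adjustment over all tested genes, threshold 0.05). On simulated data this test called 62 of 96 genes with a 4-fold change and 15 of 97 with a 2-fold change. It also called 6 of 16592 without a change. Most 2-fold changes were thus missed, and a gene that did not pass may still differ. Standard errors were obtained from the log2 fold change and the F statistic. Ratios of paired counts were compared by exact permutation tests. Alternatives were upper quartile and RLE scaling, DESeq2 1.42.0, other count filters, counts divided by 4, summed pairs, a limit of 50 counts, the mitochondrial share as covariate, a replicate block and leaving out each library.

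Named are the transcripts with an adjusted p under 0.05 on either side of the pair, the 10 most abundant, the 5 with the largest absolute log2 fold change, the 3 untested with the highest totals and those next to the 10-count limit; others are said to be chosen after their values were seen. Some items that this rule selects are not reported here. No pair of replicates agreed within sampling noise (chi-square per degree of freedom 46.2 to 350). Figures were drawn with matplotlib 3.10.9.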

Additional observations from a re-analysis of the deposited data

How the results depend on the processing

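The direction of the 8 called opposite-strand transcripts was the same in every alternative that gave a value, and RLE and upper quartile scaling kept all 8 calls. DESeq2 called 13 in place of 8, including 7 of the 8; it gave no adjusted p for Slc13a2os. Without the low-count filter 5 were called, and with the mitochondrial share as covariate 1, when 0 sense genes were called in place of 6. Leaving out 1 library gave 0 to 7 called opposite-strand transcripts, 0 to 6 called sense genes and a median log2 fold change from -0.277 to -0.0821. That median, -0.26 with all libraries, moved to -0.056 with a filter of 1 CPM in 3 libraries, -0.0625 with counts divided by 4, -0.0948 without a filter and 0.000779 with the covariate. The first 2 of these test 39 and 47 transcripts in place of 90, and the cause was not tested for the covariate. With a limit of 50 counts, 93 transcripts qualified and the same 8 were called. They make 8.60% of those 93, tested or not, against 5.84% of the 137.

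No pairing by replicate number was seen. Same-numbered libraries had correlations of 0.0229, -0.126 and -0.164 in their deviations from the group means. With 3 libraries per group these values cannot exclude a pairing. With the replicate block, 1 opposite-strand transcript (Hectd2os) and 1 sense gene (Slc13a2) were called. No sample correlated best with its own number.

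Summing the counts of pairs that share exon bases kept Slc13a2, Sorbs2, Dnmt3a, Sardh, Scpep1 and Dgke called. In each of these pairs most counts came from the sense gene, so the sum could move little. The sums of Ctcfl (-1.02) and Hectd2 (1.39) passed. There most counts came from the opposite-strand transcript (mean 37.2 CPM for Ctcflos against 3.20 for Ctcfl, 24.3 for Hectd2os against 2.74 for Hectd2). These sums repeat the calls of Ctcflos and Hectd2os and are no calls of the sense genes. Below 1 CPM the median standard error of the log2 fold change was 0.68, against 0.30 from 1 CPM up. Whether depth set the number of calls there was not tested.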

Other observations

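Other noncoding genes were read from the same fit as a setting for the opposite-strand transcripts, with lists chosen with earlier results known and no test of a list. Over all tested genes, 6.73% were called, 3.26% higher and 3.47% lower. Host genes of small nucleolar RNAs carry these RNAs in their introns. Among 13 tested, 0 were higher and 2 lower (15.4%), with a median log2 fold change of -0.44 and 12 of 13 below 0. Among 4 tested microRNA host genes 0 were higher and 2 lower (50%). Lists this short allow no reading of their shares. Of 19 tested long noncoding RNAs with established names, 1 was higher and 1 lower, with a median of -0.04.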
